A study of Mus musculus with 30 samples.

Results

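The response of cultured limb mesenchyme to BMP4 was compared between 2 populations of cells, called early and late in the labels. For each gene, the BMP4 minus control difference in the late population was subtracted from the same difference in the early population, with days 1 and 2 of culture averaged. The comparison uses 16 of the 30 arrays of the series, chosen by their labels alone: 4 arrays per population and treatment, 2 at each day. A positive value means that BMP4 moved a gene further up, or less far down, in the early population, and a negative value means the opposite.

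All cells came from E10.5 limb buds of the mouse strain CD-1. The early population was taken from the distal part of the hindlimb and the late population from the proximal part of the forelimb, so limb type, position along the limb and developmental stage differ together and cannot be told apart. An intermediate population from the distal forelimb (8 further arrays of days 1 and 2) is used below only to place the other populations. The 8 groups compared are early control, early BMP4, late control and late BMP4 at day 1 and at day 2, with 2 arrays each. Filtered single-cell suspensions were plated as dense drops, and medium with serum, without BMP4 or with BMP4 at 20 ng/ml, was added at the start of culture. RNA was pooled from cultures of many embryos, and the labels call the 2 arrays of a group biological replicates. Nothing shows whether each came from its own embryos, so p-values measure the spread between these arrays.

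BMP4 is a secreted ligand of the bone morphogenetic protein family. It binds type I and type II receptors on the cell surface, which activate SMAD proteins that enter the nucleus and change the transcription of target genes, among them inhibitors of the pathway itself. In the limb bud, BMP signals are known both for limiting distal outgrowth and for promoting the condensation and differentiation of cartilage, and dense cultures of limb mesenchyme form cartilage nodules.

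Values are log2(signal + 16) of the deposited array signal, so a difference of 1 is a 2-fold change for bright genes and understates the change of dim ones. Errors are standard errors of a limma fit across 14745 genes, and a gene was called when its adjusted p (Benjamini-Hochberg, two-sided) was under 0.05. The hindlimb genes Pitx1 and Tbx4 read 9.37 to 9.95 and 9.93 to 10.46 in the early population against 5.22 to 6.66 and 5.58 to 6.55 in the late, and the forelimb gene Tbx5 read 4.73 to 5.85 against 8.32 to 9.19, each as labelled. The ranges of proximal and distal markers, over both treatments and days, overlapped between the populations. Meis2 read 9.52 to 11.10 in the early and 9.37 to 10.45 in the late, and Hoxd13 6.80 to 8.07 and 6.87 to 8.52. Early BMP4 arrays of Meis2 lay above early control at each day, so these ranges do not compare the populations without BMP4. The summed signal of 10 limb mesenchyme markers lay between 9499 and 12628 on all 16 arrays. The summed signal of 27 skeletal muscle genes was 3024 to 9246 in the early and 10853 to 24461 in the late population, in both treatments alike. Pearson's r of the 2 arrays of a group, taken across genes (no independent replicates), was 0.969 to 0.983, and the median signal was 40.5 to 46.4 on the early BMP4 arrays and 33.9 to 40.6 on the others. Precision is limited by the 2 arrays per group.

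The response to BMP4 differed between the populations for 112 genes (0.76% of those tested). It was higher in the early population for 55 genes (0.373% of those tested) and lower for 57 (0.387%). After centring of each array on its median, the same count was 43 higher and 81 lower. Of the 14745 genes, 2007 (13.6%) had an unadjusted p under 0.05. BMP4 itself moved many more genes past the threshold in the early population, where 960 rose (6.51%) and 924 fell (6.27%), than in the late, where 44 rose (0.298%) and 18 fell (0.122%). The contrast depends on the threshold: at an unadjusted p under 0.05 (limma) the counts were 4024 (27.3%) in the early and 1487 (10.1%) in the late. The median size of the response over all genes was 0.188 in the early and 0.120 in the late population, and the responses correlated across genes with Pearson r = 0.33. Of the 44 genes that rose in the late population 32 also rose in the early (72.7% of the late list, 3.33% of the early), and of the 18 that fell 10 also fell in the early (55.6% and 1.08%). These overlaps rest on a late list of 62 genes, which ran from 11 (without late BMP4 replicate 2 of day 1) to 91 (without early BMP4 replicate 2 of day 2) when single arrays were left out, and was at most 35 without any late array other than late BMP4 replicate 1 of day 2. The count of genes is sensitive to single arrays: without late BMP4 replicate 1 of day 2 it was 8 higher and 12 lower, and without early BMP4 replicate 1 of day 1 it was 68 and 126. Every one of the 112 genes kept its sign in each alternative in which it was tested. The genes were selected on the same arrays, which makes a turned sign unlikely, so this is a description.

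**Figure D1:**
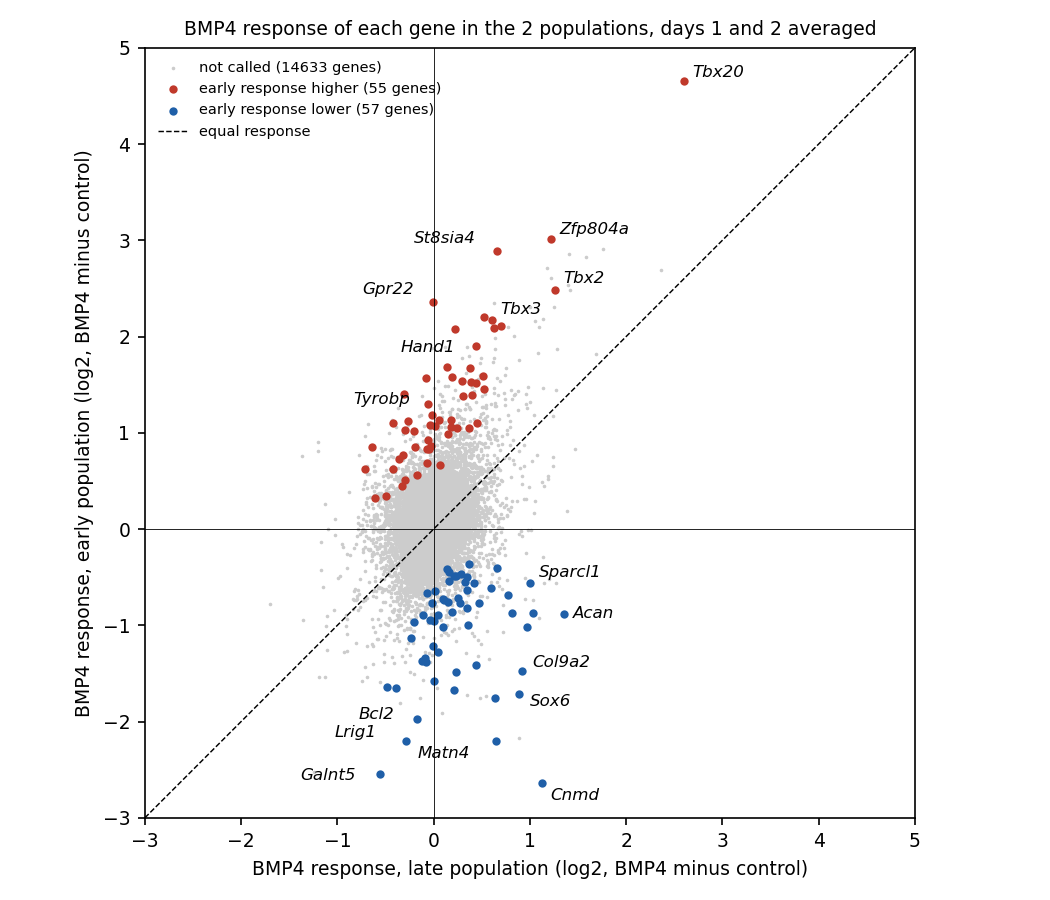
Each point is 1 of 14745 genes, with its BMP4 response in the late population on the x axis and in the early population on the y axis (both log2, BMP4 minus control, days 1 and 2 averaged); coloured points are the 112 genes whose responses differ, and the dashed line marks an equal response. The 57 lower genes lie below the line with Cnmd lowest at -2.64 in the early population, and Tbx20 stands highest, at 4.65 in the early and 2.60 in the late population.

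The signs of the 2 responses were read for each direction. Among the 57 genes with a lower early response, 42 had opposite signs, below 0 in the early and above 0 in the late population, and the median response was -0.88 in the early and 0.21 in the late. Only 2 of these 57 passed the test in both populations, falling in the early and rising in the late (Frzb, Sparcl1), and 54 fell in the early without passing in the late. Acan was the other member, rising in the late population alone. Among the 55 genes with a higher early response, 29 had the same sign in both populations with the larger response in the early, and 26 had opposite signs. Their median response was 1.12 in the early and 0.05 in the late. Of these 55 genes, 4 rose in both populations, 48 rose in the early alone by the test, and 3 passed in neither. These signs describe genes that were selected on the difference, and no contrast of the 2 directions is read from them. Some late responses with the opposite sign were near 0, such as Lrig3 (0.001) and Gpr22 (-0.008). Over all 14745 genes tested, 2503 had an early response below 0 and a late response above 0.

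The gap between the populations, early minus late, was read without and with BMP4. The difference that selected the genes is the gap with BMP4 minus the gap in control, so the selection itself bears on both gaps and nothing is read from their sizes. For the 57 genes with a lower early response the median gap was 0.21 in control and -0.94 with BMP4, and for the 55 with a higher early response -0.29 and 0.72. Tbx3 and Tbx20, both T-box transcription factors, show 2 arrangements of these levels. Tbx3 averaged 6.01 in early and 7.80 in late control cultures and 8.18 and 8.40 with BMP4, so the populations differed in control and were near each other with BMP4. Tbx20 averaged 5.66 and 5.31 in control and 10.31 and 7.91 with BMP4, so the populations were near each other in control and apart with BMP4.

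Cartilage matrix genes responded to BMP4 in opposite directions by their medians, down in the early and up in the late population. Of 24 tested members of this list, 8 had a lower early response (0.387% over all genes) and 0 a higher one (0.373%). Of the 24, 22 lay below 0, with a median difference of -1.65 against 0.02 over all genes tested. BMP4 lowered 11 of the 24 (6.27% over all genes) and raised 2 (6.51%) in the early population (median -0.87). In the late it raised 2 (0.298%) and lowered 0 (0.122%), with a median of 0.69. In 21 of 24 the early response was below 0 and the late response above 0. Over all 14745 genes tested, 2503 had that pair of signs and 6934 had a difference below 0. The members that passed were Cnmd, Matn4, Col9a2, Acan, Col11a2, Papss2, Cytl1 and Chst11. The 2 members above 0, named because they were the exceptions, were Matn2 at 0.48 ± 0.36 (adjusted p = 0.600) and Fmod at 1.35 ± 0.50 (adjusted p = 0.241). A further 4 of the 28 listed genes were below the filter on low values or not matched to a probe set. In bulk RNA, fewer or more cells of a type and less or more RNA per cell cannot be told apart.

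Cnmd encodes chondromodulin, a cartilage protein that keeps blood vessels out of the tissue, and it had the largest difference of all genes called. Its promoter is shown because it marks the low end of the comparison. The window is RefSeq's, from assembly GRCm38.p6, minus strand, chr14:79662134-79662433, with 250 bases before and 50 after the start, and lower case marks that none of the words searched for (listed with the next promoter) was found.
Cnmd: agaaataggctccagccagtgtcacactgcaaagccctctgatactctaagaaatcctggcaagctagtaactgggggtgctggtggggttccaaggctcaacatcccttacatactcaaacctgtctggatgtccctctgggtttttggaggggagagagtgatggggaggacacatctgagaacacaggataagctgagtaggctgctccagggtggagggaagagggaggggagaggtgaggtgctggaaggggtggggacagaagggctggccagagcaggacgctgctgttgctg

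In the early population Cnmd read 8.44 and 8.03 on the day 1 control arrays and 6.85 and 5.54 with BMP4, and at day 2 it read 9.93 and 9.79 without and 7.62 and 5.60 with BMP4. In the late population it read 7.61 and 8.13 at day 1 without BMP4 and 8.84 and 8.83 with it, and 8.04 and 8.74 against 9.99 and 9.38 at day 2. BMP4 arrays were below control arrays in the early and above them in the late population at each day, with no overlap. The responses were -2.64 ± 0.38 (adjusted p = 0.000468) and 1.13 ± 0.38 (adjusted p = 0.278), and their difference was -3.77 ± 0.54 (adjusted p = 0.00589). This call held in all 27 alternatives, with values from -4.15 to -2.94.

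Acan encodes aggrecan, the main proteoglycan of cartilage. Its early control arrays read 6.51 and 6.69 at day 1 and 8.49 and 8.28 at day 2, and the early BMP4 arrays 6.66 and 5.98, then 7.58 and 6.24. Its late control arrays read 6.33 and 6.89, then 7.45 and 7.80, and the late BMP4 arrays 8.18 and 8.23, then 8.81 and 8.67. The BMP4 arrays of the late population were thus above control at both days, while those of the early population overlapped control at day 1 and lay below it at day 2. Acan rose by 1.36 ± 0.28 in the late population (adjusted p = 0.0499), the early response was -0.88 ± 0.28 (adjusted p = 0.052), and the difference was -2.23 ± 0.40 (adjusted p = 0.0206). It was lost in 6 of 27 alternatives, with an adjusted p of at most 0.0577.

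The other members that passed are collagens, a matrix linker, enzymes of proteoglycan sulfation and a secreted protein. Matn4, a matrilin that links matrix fibres, had a difference of -2.86 ± 0.54 (adjusted p = 0.0284), with early BMP4 arrays at 8.18 and 6.21, then 9.74 and 7.82, and early control arrays at 9.57 and 8.77, then 11.20 and 11.21. Col9a2, a chain of the fibril-associated collagen IX, differed by -2.38 (adjusted p = 0.0295), and Col11a2, a chain of the fibril collagen XI, by -1.99 ± 0.37 (adjusted p = 0.0257). Papss2, which makes the sulfate donor used for proteoglycans, differed by -1.90 ± 0.37 (adjusted p = 0.0296), and Chst11, which adds sulfate to chondroitin chains, by -1.69 ± 0.30 (adjusted p = 0.0206). Cytl1, a secreted protein made by chondrocytes, differed by -1.88 ± 0.38 (adjusted p = 0.0332). Of 27 alternatives, the call was lost in 14 for Cytl1, 10 for Papss2, 10 for Col9a2, 9 for Matn4, 7 for Col11a2 and 6 for Chst11. Early and late responses of all 6 had opposite signs, from -2.20 (Matn4) to -0.87 in the early and from 0.21 (Cytl1) to 1.03 (Papss2) in the late population. Matn1 had the second lowest value of the list, -3.05 ± 0.73, and did not pass (adjusted p = 0.0649). Col2a1, the main collagen of cartilage, fell by 0.91 ± 0.26 in the early population (adjusted p = 0.0329), its late response was 0.44 ± 0.26, and the difference of -1.36 ± 0.37 did not pass (adjusted p = 0.108).

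For these genes the 2 replicates of the early BMP4 groups were unequal. Replicate 2 read below replicate 1 at both days for Cnmd, Acan, Matn4, Col9a2, Col11a2, Sox6, Sox9 and Col2a1, as in the day 2 arrays of Cnmd (7.62 and 5.60). An alternative chosen after seeing this left out both of these replicate 2 arrays. It gave 6 of 24 members with a lower early response, 22 of 24 below 0, and a median difference of -1.24 in place of -1.65, with a median early response of -0.45 in place of -0.87. Over all genes it gave 13 higher and 29 lower. Cnmd was then -2.94 ± 0.32 (adjusted p = 0.00179) and Acan -1.73 ± 0.27 (adjusted p = 0.0176). Matn4 was -1.88, Col9a2 -1.61 and Col11a2 -1.45. Col2a1 was -0.70 (adjusted p = 0.126), with an early response of -0.26 in place of -0.91. Leaving out single arrays gave 1 (without late control replicate 1 of day 1) to 12 (without early BMP4 replicate 1 of day 1) members of the list with a lower early response. What set the replicates apart was not tested.

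**Figure D2:**
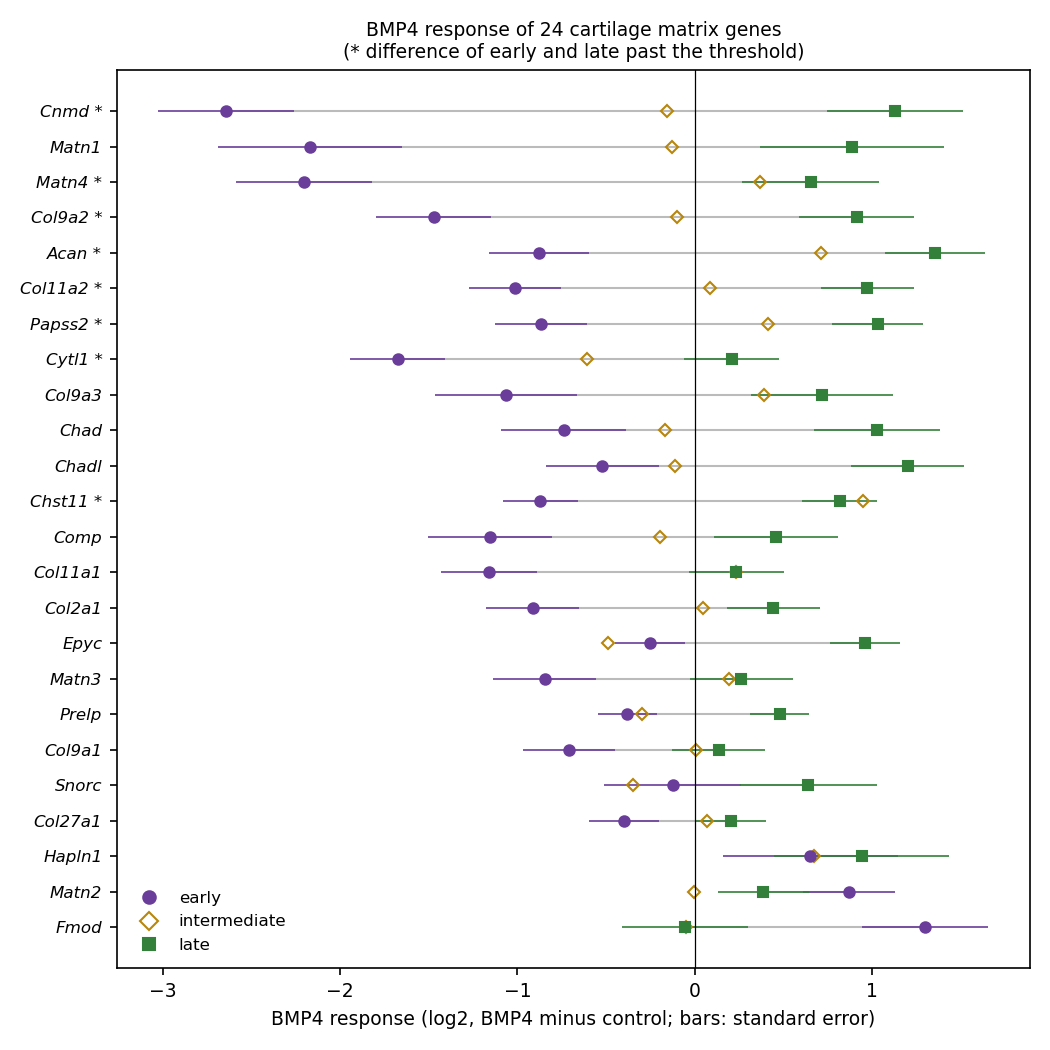
BMP4 response (x axis, log2, BMP4 minus control, days 1 and 2 averaged) of the 24 tested cartilage matrix genes (rows, sorted by the early minus late difference) in the early, intermediate and late population; bars are standard errors of the early and late values, and stars mark the 8 genes called. In 21 of 24 rows the early value lies left of 0 and the late value right of it, and the intermediate values have a median of 0.00.

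Transcription factors of the cartilage lineage had 1 call. Of 14 tested, 1 had a lower early response (0.387% over all genes), 11 had a difference below 0 and the median difference was -0.63. Their early responses were split, 7 below and 7 above 0 (median -0.12), and 10 of 14 late responses were above 0 (median 0.26). The early response was below 0 and the late above 0 in 4 of 14. Sox6, a partner of SOX9 in turning on cartilage matrix genes, was the member that passed. Its early control arrays read 9.35 and 9.25, then 9.53 and 9.80, and the early BMP4 arrays 8.65 and 6.92, then 8.64 and 6.87. Its late control arrays read 8.72 and 9.06, then 8.20 and 8.78, and the late BMP4 arrays 9.81 and 9.72, then 9.23 and 9.54. BMP4 arrays lay below control in the early and above control in the late population at each day. The difference was -2.60 ± 0.48 (adjusted p = 0.0257), from -1.71 ± 0.34 in the early (adjusted p = 0.00413) and 0.89 ± 0.34 in the late population (adjusted p = 0.359). It was lost in 6 of 27 alternatives, with an adjusted p of at most 0.0665.

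Sox9 itself, the factor that starts cartilage formation, fell by 0.85 in the early population (adjusted p = 0.049) and had a late response of 0.30 (adjusted p = 0.764). Its early control arrays read 9.66 and 9.51, then 9.68 and 9.91, and the early BMP4 arrays 9.66 and 8.06, then 9.20 and 8.44, so that at day 1 replicate 1 was level with control and replicate 2 below it. The difference of -1.15 ± 0.38 did not pass (adjusted p = 0.184), and the 2 other probe sets of Sox9 gave -1.05 and 0.25. Without both early BMP4 replicate 2 arrays the early response of Sox9 was -0.26 and the difference -0.56 (adjusted p = 0.371). Foxc1, Foxc2 and Foxa3, forkhead factors of mesenchyme and cartilage, had differences of -1.22 ± 0.36, -1.30 ± 0.39 and -1.21 ± 0.28 (adjusted p = 0.131, 0.133 and 0.0579), and the early responses of Foxc1 and Foxc2 were -1.31 and -1.51 (both called). Genes of cartilage maturation and bone had a median difference of -0.64 with 0 of 9 called by limma (4 at an unadjusted p under 0.05), among them Ihh, a hedgehog ligand of maturing cartilage, at -1.51 ± 0.46 (adjusted p = 0.14). Joint genes had a median of -0.63 with 0 of 11 called (also 4 at an unadjusted p under 0.05), among them Gdf5, a BMP family ligand of the joint region, at -0.70 ± 0.39 (adjusted p = 0.464) and Osr2, a zinc finger factor, at -1.81 ± 0.44 (adjusted p = 0.0697).

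**Figure D3:**
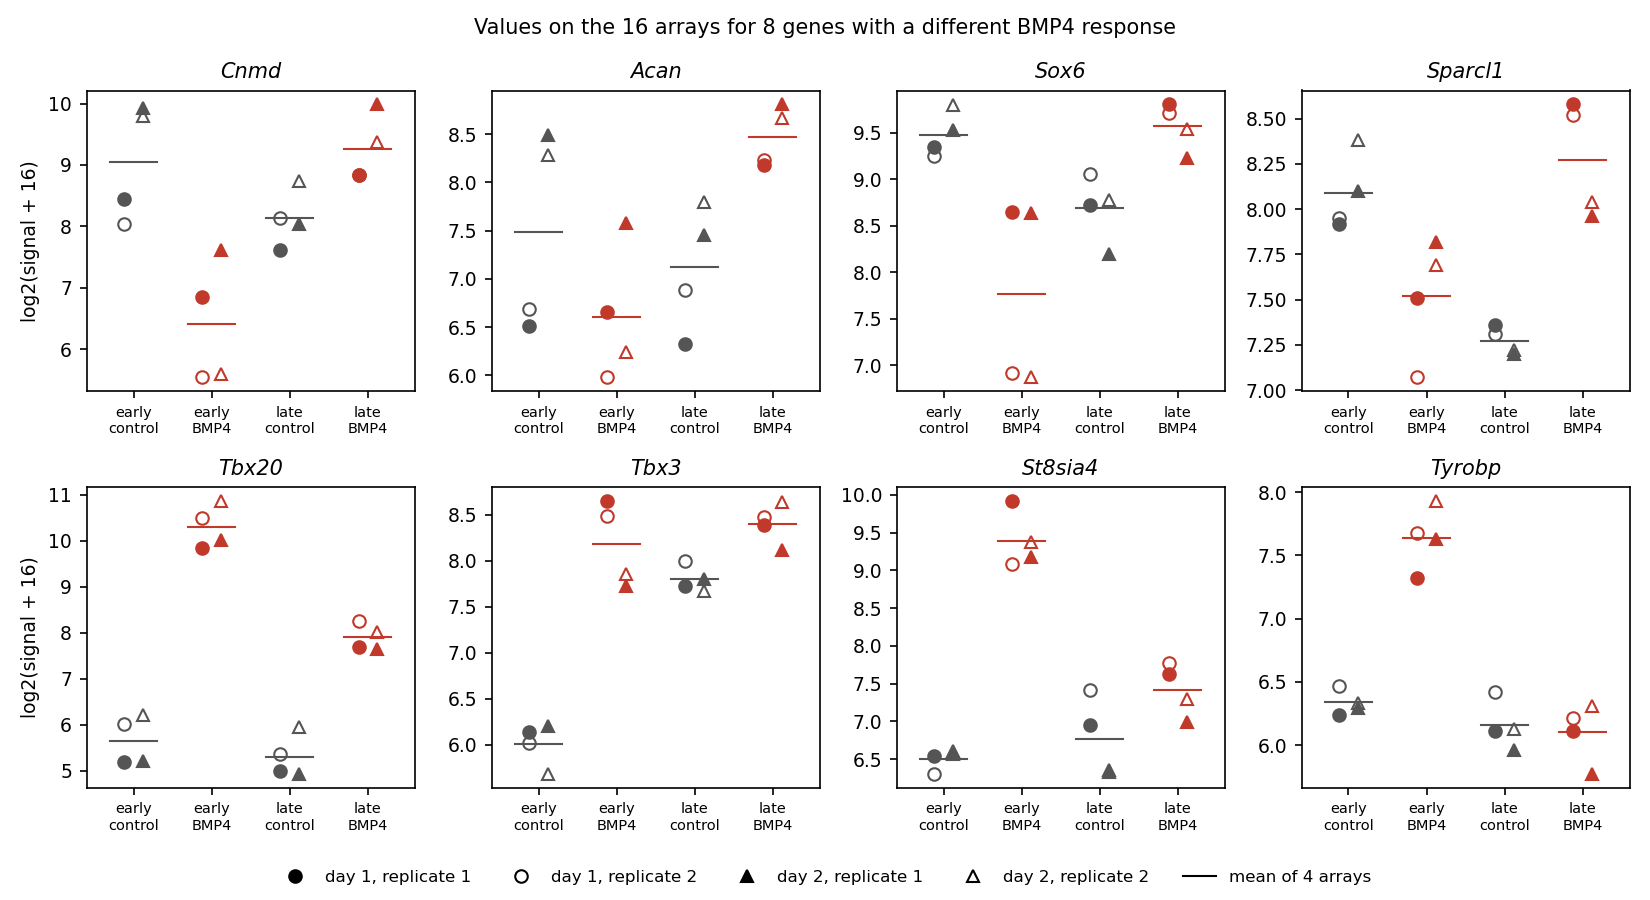
Values on each of the 16 arrays (y axis, log2(signal + 16)) for 8 genes, by population and treatment; circles are day 1, triangles day 2, filled symbols replicate 1, open symbols replicate 2, and lines the mean of 4 arrays. In Cnmd, Acan, Sox6 and Sparcl1 the mean with BMP4 lies below control in the early and above it in the late population, the Tbx3 arrays with BMP4 overlap from separate controls, and the early BMP4 arrays of Tyrobp lie above the other 12.

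Several genes with a lower early response lie outside the cartilage lists. Trim47, a ubiquitin ligase of the TRIM family, read 5.81 and 6.17, then 7.85 and 7.85 on the early control arrays and 4.89 and 4.55, then 5.65 and 5.56 with BMP4. In the late population it read 5.86 and 5.42, then 7.23 and 7.90 in control and 6.89 and 6.46, then 7.83 and 7.78 with BMP4. It thus read higher at day 2 than at day 1 in every group, with BMP4 below control at each day in the early population. The difference was -2.40 ± 0.32 (adjusted p = 0.00458) and held in all 27 alternatives. Fibin, a secreted protein of the limb bud, had a difference of -1.86 ± 0.25 (adjusted p = 0.00458), with the early response at -1.42 and the late at 0.44, and it also held in all 27.

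Galnt5, which starts O-linked sugar chains on proteins, fell by 2.54 in the early population and had a late response of -0.56 (adjusted p = 0.439). Its early control arrays read 7.01 to 7.67 and its early BMP4 arrays 4.35 to 5.88. Bcl2, an inhibitor of cell death, fell by 1.98 in the early population, from 8.73 to 10.18 in control to 6.85 to 8.32 with BMP4, and its late response was -0.18 (adjusted p = 0.853). Lrig1, a brake on growth factor receptors, had a difference of -1.91 ± 0.40 (adjusted p = 0.0406), and of its 2 other probe sets 1 had the opposite sign, at 0.61. The call was lost in 18 of 27 alternatives for Lrig1, 9 for Bcl2 and 3 for Galnt5. Dnajc22, a heat shock cofactor, had a difference of -1.72 ± 0.37 (adjusted p = 0.0454), and this call was lost in 16 of 27 alternatives.

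Sparcl1, a secreted matrix protein named here after its values were seen, had the smallest adjusted p of the comparison together with St8sia4. Its early control arrays read 7.92 and 7.95, then 8.10 and 8.38, and the early BMP4 arrays 7.51 and 7.07, then 7.82 and 7.69. Its late control arrays read 7.36 and 7.31, then 7.20 and 7.22, and the late BMP4 arrays 8.58 and 8.52, then 7.96 and 8.04. Sparcl1 fell by 0.56 ± 0.12 in the early population (adjusted p = 0.00539) and rose in the late by 1.00 ± 0.12 (adjusted p = 0.00117), with no overlap of BMP4 and control at either day in either population. The difference was -1.56 (SE 0.17, adjusted p = 0.000642). Frzb, a secreted WNT antagonist of cartilage, did the same on a smaller scale, falling by 0.40 in the early (adjusted p = 0.0292) and rising by 0.66 in the late population (adjusted p = 0.0194), a difference of -1.06 ± 0.16 (adjusted p = 0.00725). Frzb was the 1 of 24 tested WNT genes that passed, and the list's median was -0.01.

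A further 3 factors of limb mesenchyme and the proximal limb fell in the early population and did not pass in the late. Twist2, a helix-loop-helix factor of mesenchyme, had a difference of -1.32 ± 0.20 (adjusted p = 0.00725) from an early response of -1.27 and a late response of 0.05. Shox2, a homeobox gene needed for the proximal limb skeleton, read 11.63 and 11.19, then 11.46 and 11.51 in early control and 10.36 and 9.35, then 10.58 and 10.02 with BMP4, and 10.80 to 11.32 on all 8 late arrays. The difference was -1.25 (adjusted p = 0.0313), lost in 12 of 27 alternatives. Tbx18, a T-box factor of the proximal limb and heart, differed by -1.25 too (adjusted p = 0.0193), from -1.65 in the early and -0.39 in the late population. They were the 2 of 15 tested proximal limb genes that passed, and the median of that list was -0.03.

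Among the components of the BMP pathway 1 of 19 tested passed. Bmpr1b, the type I receptor of cartilage condensations, read 7.61 and 7.27, then 6.98 and 6.96 on the early control arrays and 6.98 and 6.20, then 6.37 and 6.81 with BMP4. In the late population it read 7.31 and 7.40, then 6.98 and 6.56 in control and 8.15 and 8.09, then 7.21 and 7.19 with BMP4. Bmpr1b fell by 0.62 in the early population (adjusted p = 0.0296), its late response was 0.60 (adjusted p = 0.192), and the difference was -1.21 ± 0.24 (adjusted p = 0.0332), lost in 14 of 27 alternatives. Bmp2, a ligand, fell by 1.59 in the early population, and its difference of -1.04 ± 0.34 did not pass (adjusted p = 0.178).

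Direct targets and feedback inhibitors of BMP signalling had 0 of 20 tested members called by limma (0.76% over all genes). At an unadjusted p under 0.05 there were 4 of 20 (13.6% over all genes). The median difference was 0.30, with 14 above 0. In the early population 9 rose (6.51% over all genes) and 1 fell (6.27%), with a median of 0.78. In the late 4 rose (0.298%), Nog, Msx1, Msx2 and Dlx2, with a median of 0.37. Nog encodes noggin, an extracellular BMP inhibitor. Its early control arrays read 5.57 and 6.70, then 6.92 and 6.82, the early BMP4 arrays 8.54 and 8.38, then 8.23 and 8.11, the late control arrays 5.97 and 6.44, then 6.21 and 6.40, and the late BMP4 arrays 8.28 and 8.50, then 7.86 and 7.13. Nog was thus higher with BMP4 on every array of both populations, rising by 1.81 and 1.69, and the difference of 0.13 ± 0.39 (adjusted p = 0.925) changed sign without some single arrays.

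Msx2, a homeobox target, had called responses of 2.54 in the early and 1.40 in the late population, and Dlx2, another homeobox target, of 2.91 and 1.76. Their differences of 1.14 ± 0.34 and 1.15 ± 0.43 did not pass (adjusted p = 0.136 and 0.246). Smad6, an inhibitory SMAD, rose by 1.28 in the early population, and its difference was 0.62 ± 0.30 (adjusted p = 0.371). Id1, an inhibitor of helix-loop-helix factors, read 9.42 to 10.15 on the early and 9.51 to 10.16 on the late arrays, with responses of -0.16 and 0.06 and a difference of -0.22 ± 0.15 (adjusted p = 0.537).

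Transcription factors of the lateral plate and heart had the most members called with a higher early response among the 31 lists. Of 17 tested, 4 had a higher and 1 (Tbx18) a lower early response, with a median difference of 0.39. In the early population 11 rose and 1 fell, and in the late 2 rose. Over all genes tested, 0.373% had a higher early response, 6.51% rose in the early and 0.298% in the late population. The 4 with a higher early response were Tbx20, Tbx3, Tbx2 and Hand1. Leaving out single arrays gave 1 (without late control replicate 1 of day 1) to 5 (without late BMP4 replicate 2 of day 2) of them, and without both early BMP4 replicate 2 arrays 1 passed.

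Tbx20 encodes a T-box factor of the developing heart, and it had the largest BMP4 response among the genes called. Its promoter is shown because it marks that end. The window is RefSeq's, from GRCm38.p6, minus strand, chr9:24774254-24774553, and the capitals mark its 1 match to GGCGCC, a GC-rich word bound by SMAD proteins, which reads the same on both strands.
Tbx20: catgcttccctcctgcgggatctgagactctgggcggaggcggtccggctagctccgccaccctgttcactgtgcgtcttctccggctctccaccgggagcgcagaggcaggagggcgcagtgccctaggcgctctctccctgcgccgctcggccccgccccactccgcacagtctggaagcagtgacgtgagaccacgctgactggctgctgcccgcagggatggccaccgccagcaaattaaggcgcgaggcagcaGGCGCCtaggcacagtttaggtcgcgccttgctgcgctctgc

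Searched on both strands, that word lies in 11.9% of 32851 RefSeq mouse promoters of the same length. The words ACAAAG and ACAATG, cores of SOX sites, lie in 28.6%, and AGATAA and TGATAA, cores of GATA sites, in 18.6%. None of the SOX and GATA words was found in either window shown. Of 55 genes with a higher early response 37 had a promoter in the table, 53 windows in all, and the shares were 20.8%, 18.9% and 3.77% in the same order. Of the 57 with a lower early response 52 had one, 69 windows in all, with 17.4%, 27.5% and 11.6%. These shares were not tested, windows of 1 gene overlap, and a match says only that the letters are there.

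Tbx20 read 5.19 and 6.01, then 5.21 and 6.21 on the early control arrays and 9.85 and 10.50, then 10.02 and 10.87 with BMP4. In the late population it read 5.00 and 5.36, then 4.93 and 5.95 in control and 7.70 and 8.25, then 7.66 and 8.03 with BMP4. Every BMP4 array was above every control array, and every early BMP4 array was above every late one. Tbx20 rose in the early (4.65 ± 0.29) and the late population (2.60 ± 0.29) (adjusted p = 2.03e-07 and 0.000673). The difference was 2.05 ± 0.40 (adjusted p = 0.0298), and both other probe sets agreed in sign, at 1.44 and 1.70. The call was lost in 11 of 27 alternatives, with an adjusted p of at most 0.121, which it had without both early BMP4 replicate 2 arrays (1.68 ± 0.42).

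Tbx3 and Tbx2 are T-box repressors of the limb margins and heart. Tbx3 read 6.14 and 6.02, then 6.20 and 5.68 in early control and 8.65 and 8.49, then 7.72 and 7.85 with BMP4, against 7.72 and 8.0, then 7.80 and 7.67 in late control and 8.39 and 8.47, then 8.12 and 8.64 with BMP4. Early control was the low group, and the early BMP4 arrays overlapped the late BMP4 arrays. Tbx3 rose by 2.17 in the early population (adjusted p = 1.08e-06), its late response was 0.61 (adjusted p = 0.118), and the difference of 1.57 ± 0.22 (adjusted p = 0.00497) held in all 27 alternatives. The 3 other probe sets of Tbx3 had the same sign, from 0.37 to 1.53. Tbx2 had the same arrangement, with means of 6.23 and 7.21 in early and late control and 8.72 and 8.47 with BMP4. It rose by 2.49 and 1.26, a difference of 1.22 ± 0.23 (adjusted p = 0.0296) that was lost in 9 of 27 alternatives.

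Hand1, a helix-loop-helix factor of the heart and lateral plate, read 7.01 and 7.11, then 6.65 and 6.22 in early control and 8.52 and 9.18, then 8.11 and 8.78 with BMP4. In the late population it read 6.84 and 7.04, then 6.27 and 6.25 in control and 7.28 and 7.42, then 6.17 and 7.28 with BMP4. It rose by 1.90 in the early population, and the difference was 1.46 ± 0.30 (adjusted p = 0.0374), lost in 16 of 27 alternatives. GATA factors and their FOG cofactors had 0 of 8 called by limma and 5 at an unadjusted p under 0.05 (13.6% over all genes). All 8 differences were above 0 (median 0.63), against 7811 of all 14745 genes tested. Of the 8, 5 are also in the list above, so the 2 lists are not separate results. In the early population 7 of the 8 rose (median 1.06), against 6.51% over all genes. In the late 0 passed (median 0.49, 6 at an unadjusted p under 0.05). Gata6 rose by 2.86 in the early population, its late response was 1.40 (adjusted p = 0.0545), and its difference of 1.45 ± 0.42 did not pass (adjusted p = 0.124). Gata3 was 1.05 ± 0.53 (adjusted p = 0.402) and Zfpm2 1.12 ± 0.31 (adjusted p = 0.111). The other probe set of Zfpm2 gave -0.11, so its sign depends on the probe set used.

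Gpr22, an orphan G protein-coupled receptor, had the largest positive difference with the constant of 16, a rank that depends on it: with a constant of 64 Gpr22 was 1.14, below Tbx20 (2.02) and St8sia4 (1.90). It read 4.22 to 4.32 on the early control arrays, 4.08 to 4.28 on the late control arrays and 4.11 to 4.31 on the late BMP4 arrays, near the floor of the scale, and 6.46 and 7.27, then 6.09 and 6.63 on the early BMP4 arrays. Signal above that floor was thus seen in 1 of the 4 combinations of population and treatment. The difference was 2.37 ± 0.28 (adjusted p = 0.00139) and moved between 1.14 and 4.38 over the alternatives, the extremes coming from the constant added before the logarithm, with the call kept in all 27.

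St8sia4 makes polysialic acid, a long sugar chain on the adhesion molecule NCAM. It read 6.54 and 6.30, then 6.56 and 6.60 in early control and 9.92 and 9.08, then 9.18 and 9.37 with BMP4. In the late population it read 6.95 and 7.41, then 6.35 and 6.33 in control and 7.63 and 7.77, then 6.99 and 7.30 with BMP4. BMP4 arrays were above control at each day in both populations, by a larger step in the early. The difference was 2.23 ± 0.24 (adjusted p = 0.000642), held in all 27 alternatives, and its other probe set gave 0.78. Zfp804a, a zinc finger gene, had called responses of 3.02 in the early and 1.22 in the late population, from control means of 4.85 and 6.30 to 7.87 and 7.52, with a difference of 1.79 (SE 0.21, adjusted p = 0.00139).

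The rest of the 14 largest positive differences are genes of mixed function. Gpr85, another orphan receptor, had 1.86 ± 0.39 (adjusted p = 0.0408). Ifi202b, an interferon-induced gene, had 1.71 ± 0.33 and Olfm2, a secreted olfactomedin, 1.68 ± 0.36 (adjusted p = 0.0295 and 0.0442). Kcnv1, a potassium channel subunit, had 1.65 ± 0.35, Slc15a3, a peptide transporter, 1.54 ± 0.27, and Brinp1 1.47 ± 0.30. Cyp4x1, a cytochrome P450, had 1.52 ± 0.25 from an early response of 1.10 and a late response of -0.42. Gm3764 had 1.49 ± 0.29, but its 2 other probe sets gave -0.22 and 0.30, so the value rests on 1 probe set. Of these 8 genes, Cyp4x1 kept its call in all 24 alternatives in which it was tested, and the others lost it in 4 (Slc15a3) to 17 (Gpr85, Olfm2, Kcnv1) of 27. Ifi202b, Kcnv1, Slc15a3, Brinp1 and Cyp4x1 were dim, with control means from 4.29 to 4.99, near the floor of the scale. Their sizes moved over the alternatives, from 0.69 to 3.76, 0.70 to 3.22, 0.68 to 3.02, 0.82 to 2.24 and 0.57 to 3.57 in that order.

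Other lists held single genes with a higher early response. Dcn, decorin, a proteoglycan of fibrous tissue, rose by 1.58 in the early population, from 6.13 to 6.73 in control to 7.77 to 8.38 with BMP4, and its late response was 0.19 (adjusted p = 0.763). Its difference was 1.39 ± 0.24 (adjusted p = 0.0193), the 1 of 20 tendon and fibrous tissue genes that passed. Prrx2, a homeobox gene of limb mesenchyme, read 8.35 to 8.60 in early control, 9.42 to 10.65 with BMP4, 9.30 to 9.52 in late control and 9.55 to 10.07 with BMP4, a difference of 1.08 ± 0.19 (adjusted p = 0.0207). Hoxc4 averaged 4.87 and 6.44 in early and late control and 5.50 and 5.73 with BMP4, a difference of 1.33 ± 0.28 (adjusted p = 0.0435) in which neither response passed by itself. Of 27 alternatives, the call was lost in 17 for Hoxc4, 4 for Prrx2 and 2 for Dcn.

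Macrophage and leukocyte markers moved with BMP4 in the early population, and by a smaller median in the intermediate. The difference was above 0 for all 12 tested markers (median 0.88), against 7811 of all 14745 genes tested. Of the 12, 2 passed with a higher early response (0.373% over all genes), Tyrobp and Csf1r. Leaving out single arrays gave 1 (without late control replicate 1 or late BMP4 replicate 1 of day 2) to 5 (without early BMP4 replicate 1 of day 1) of them, and without both early BMP4 replicate 2 arrays 1 passed. In the early population 10 of the 12 rose (median 0.96), against 6.51% over all genes. In the late 0 passed, adjusted or not (limma, median 0.05). In the intermediate population all 12 responses were above 0 (median 0.69), with 2 called by limma and 10 at an unadjusted p under 0.05. The summed signal of the 12 was 644 to 824 in early control, 1258 to 1843 in early BMP4, 558 to 665 in late control and 615 to 635 in late BMP4 arrays. The early BMP4 arrays were thus above all the others, and Ptprc, a marker of all leukocytes, read 4.75 to 6.36 in the early and 4.58 to 5.66 in the late population. Tyrobp, a signalling adaptor of myeloid cells, read 6.24 and 6.47, then 6.29 and 6.33 in early control and 7.32 and 7.68, then 7.63 and 7.93 with BMP4, against 5.77 to 6.42 on all 8 late arrays. The difference was 1.36 ± 0.21 (adjusted p = 0.00727). Csf1r, the receptor for the macrophage growth factor CSF1, read 7.75 to 7.98 in early control and 8.44 to 8.90 with BMP4, against 7.39 to 7.80 on all late arrays, a difference of 0.90 ± 0.16 (adjusted p = 0.0193). The part of these cells in the other results was not tested. The summed signal of 13 ectoderm markers was 1003 to 1865 in early control and 1549 to 2116 in early BMP4, and 842 to 1203 and 812 to 1009 in the late population, with 0 of 13 called by limma (4 at an unadjusted p under 0.05).

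The difference was also taken at each day, with 2 arrays per group. At day 1 the early response was higher for 2 genes, St8sia4 and Tbx3 (0.0136%), and lower for 2, Sparcl1 and Trim47 (0.0136%). At day 2 it was lower for 2, Trim47 and Chadl (0.0136%), and higher for 0 (0%), with 1862 genes at an unadjusted p under 0.05 in either direction (limma). The day counts depended on the setting. At day 2, 39 genes were called after median centring, 43 with a constant of 64, and 1 to 167 when single arrays were left out (most without early BMP4 replicate 1 of day 2), and at day 1 single arrays left out gave 0 to 29. All 112 genes called over the days together had the same sign at both. They were selected on the average of the 2 days, which all but fixes this, so it is a description. The median of the 24 cartilage matrix genes was -1.08 at day 1 and -1.99 at day 2. No gene had a change from day 1 to day 2 that passed (limma, smallest adjusted p 0.1, with 624 genes or 4.23% at an unadjusted p under 0.05). Chadl, a matrix protein that binds collagen, read 4.91 and 4.82 in early control at day 1 and 6.42 and 6.41 at day 2, 5.05 and 5.48, then 5.18 and 4.77 in early BMP4, 4.87 and 4.91, then 5.03 and 5.16 in late control and 5.28 and 5.71, then 6.84 and 6.96 in late BMP4. It thus read high at day 2 in early control and late BMP4, and its difference was -0.21 ± 0.32 at day 1 and -3.24 ± 0.32 at day 2 (adjusted p = 0.988 and 0.00199; adjusted p of the change 0.1). Dscam, an adhesion receptor, had -2.30 ± 0.39 and 1.46 ± 0.39 at the 2 days (adjusted p of the change 0.1), and Mrps36, a mitochondrial gene, 0.78 ± 0.18 and -0.54 ± 0.18 (adjusted p of the change 0.622).

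The intermediate population lay nearer the late population for most genes called. BMP4 raised 42 genes in it (0.285%) and lowered 25 (0.17%). Of the 55 genes with a higher early response its value lay between the other 2 for 43, nearer the early for 9 and nearer the late for 46, with a median of 0.32. Of the 57 with a lower early response it lay between for 43, nearer the early for 3 and nearer the late for 54, with a median of -0.01. Since the 112 genes were chosen for a distance of early from late, these counts are a description. Cnmd was -0.16 and Sox6 0.07 in the intermediate population, while Acan was 0.71, and 0 of 24 cartilage matrix genes passed there (limma, 3 at an unadjusted p under 0.05). Tbx20 was 2.64, near the late population, and Tbx3 was 1.07. Gata6 was -0.07, below both others. Sparcl1, at 1.65, was above both. The macrophage genes Tyrobp and Csf1r were 0.90 and 0.81, nearer the early population.

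Most other lists had few or no members called. The 23 cell cycle genes had 0 called by limma (9 at an unadjusted p under 0.05) and a median of -0.27. In the early population 15 of them fell (6.27% over all genes), and in the late 0 did (2 at an unadjusted p under 0.05). The response was below 0 for 21 of 23 in the early (median -0.42) and for 20 in the late population (median -0.11). Over all 14745 genes tested it was below 0 for 6616 in the early and 7438 in the late. The 22 guidance and adhesion genes had 1 called, St8sia4, and the 13 hedgehog and posterior limb genes 3, all T-box and Hand factors given above. Ptch1, the hedgehog receptor and target, was -1.68 ± 0.42 (adjusted p = 0.0796). The 13 genes of cell death had 1 called, Bcl2, with a lower early response. It ran against the rest of its list, in which 12 of 13 differences were above 0 (median 0.27). The 31 lists name 496 different genes, and 437 of them were tested.

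**Figure D4:**
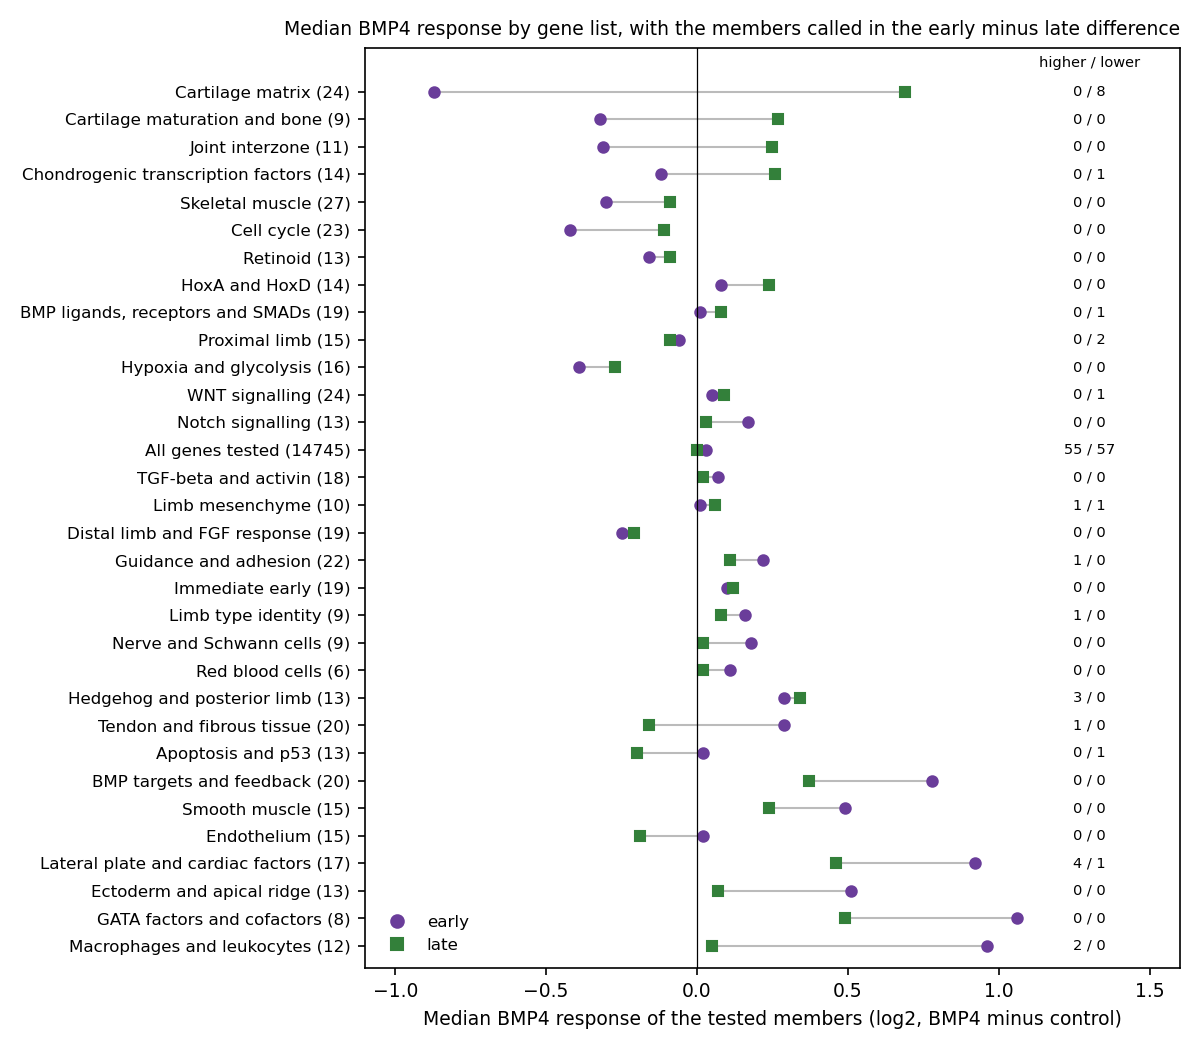
Median BMP4 response (x axis, log2, BMP4 minus control, days 1 and 2 averaged) of the tested members of each of 31 lists and of all genes tested, in the early (circles) and late (squares) population; the number tested is in brackets, and the right-hand column gives members called higher and lower in the early minus late difference. Cartilage matrix has the widest step, from -0.87 to 0.69, and macrophage markers run the other way, from 0.96 to 0.05.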

How the data were processed

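RNA was hybridized to Affymetrix mouse expression arrays with 45101 probe sets. The authors deposited MAS5 signal, a linear intensity per probe set, per the submitters' processing notes. The MAS5 settings were not given in the sources used here. On every array the trimmed mean signal was 150, so the deposited intensity was already scaled to a common level. Values were used as log2(signal + 16). Of 34945 probe sets with 1 gene symbol in the platform annotation (932 had several and 9160 none), those above their array's 40th percentile on at least 2 of the 16 arrays were kept, and the brightest per gene gave 14745 genes.

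Tests used limma 3.58.1 (R 4.3.3). The model held a mean for each day in each population and a BMP4 effect in each population (10 residual and 5.34 prior degrees of freedom), with the variance trended on the mean. P-values were adjusted by Benjamini-Hochberg over the 14745 genes, at a threshold of 0.05. Each day was tested from 8 group means (8 residual degrees of freedom), and the intermediate response came from a fit of 24 arrays. Steps were tested on simulated data. Named genes are the 14 largest called differences in each direction, up to 4 members of each list with the smallest p, the 3 smallest p for the change between days, and Sox9, Col2a1, Acan, Matn1, Id1, Smad6, Msx2, Nog, Gata6, Gata3, Tbx20, Ihh and Gdf5; exceptions are marked. The comparison, the rule and the 31 lists were chosen with earlier results of these data known. Promoters came from RefSeq (GRCm38.p6). Alternatives changed the constant added, the filter, the scaling, the choice of probe set, the fit, the replicate block and the arrays used.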

Additional observations from a re-analysis of the deposited data

Results flagged for a closer look

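Each result here is a gene whose BMP4 response differed between the early and the late population by the limma test of that difference (log2, early minus late, 2 arrays per group and day).

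The response was higher in the early population for Gpr22 (2.37), St8sia4 (2.23), Tbx20 (2.05), Gpr85 (1.86), Zfp804a (1.79), Ifi202b (1.71), Olfm2 (1.68), Kcnv1 (1.65), Tbx3 (1.57), Slc15a3 (1.54), Cyp4x1 (1.52), Gm3764 (1.49), Brinp1 (1.47) and Hand1 (1.46). It was also higher for Dcn (1.39), Tyrobp (1.36), Kcnv2 (1.33), Hoxc4 (1.33), Tbx2 (1.22), Kcnab1 (1.12), Ctss (1.08), Prrx2 (1.08), Apoe (1.06), Lcp1 (1.04), Kcnq5 (1.00), Wfdc18 (0.93), Csf1r (0.90), Grpr (0.84) and Plxna2 (0.65).

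The response was lower in the early population for Cnmd (-3.77), Matn4 (-2.86), Sox6 (-2.60), Trim47 (-2.40), Col9a2 (-2.38), Acan (-2.23), Col11a2 (-1.99), Galnt5 (-1.99), Lrig1 (-1.91), Papss2 (-1.90), Cytl1 (-1.88), Fibin (-1.86), Bcl2 (-1.80), Dnajc22 (-1.72) and Chst11 (-1.69). It was also lower for Sparcl1 (-1.56), Twist2 (-1.32), Shox2 (-1.25), Tbx18 (-1.25), Bmpr1b (-1.21), Chst15 (-1.21), Galnt3 (-1.16), Frzb (-1.06) and Sulf2 (-0.60).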

How the results depend on the processing

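Every gene named kept the sign of its difference when the constant added, the filter, the scaling, the probe set rule, the fit or the replicate block was changed. Genes selected for their difference on these same arrays can hardly turn, so this is a description. Without single arrays the sign turned for Nog, at -0.20 (early control replicate 1 of day 1), -0.01 (early BMP4 replicate 1 of day 1), -0.01 (late control replicate 2 of day 2) and -0.12 (late BMP4 replicate 2 of day 2), within a range from -0.20 to 0.32, and the values of Dscam (late BMP4 replicate 1 of day 1 left out) and Mrps36 (early BMP4 replicate 2 of day 1 left out) came to 0.00, within ranges from -0.75 to 0.00 and from 0.00 to 0.25. The calls held in every alternative tested for Gpr22, St8sia4, Tbx3, Cyp4x1, Tyrobp, Cnmd, Trim47, Fibin, Sparcl1, Frzb and Twist2.

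Counts of calls moved more, and the cause was not tested. At day 2 a constant of 1 gave 1 gene, a constant of 64 gave 43, no filter 1, median centring 39, quantile normalization 15, the mean over probe sets 5 and a fit of all 30 arrays 31. At day 1 a constant of 64 gave 2 and the mean over probe sets 1. The change between days had 1 call with a constant of 64 and 1 with all 30 arrays. Without a filter 39 genes were called in the late population. The fit of 8 group means gave 92 genes with a lower early response. Lateral plate and cardiac factors had 2 members called with a constant of 1 and 2 with all 30 arrays.

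Without both early BMP4 replicate 2 arrays, chosen after seeing the data, 13 genes were higher and 29 lower, 1141 were called in the early and 110 in the late population, 1 changed between days and 1 lateral plate factor was higher. Single arrays left out gave 8 to 68 genes higher, 12 to 126 lower, 1088 to 2125 in the early population, 11 to 91 in the late, 0 to 29 at day 1, 1 to 167 at day 2 and 0 to 1 for the change. They gave 1 to 12 cartilage matrix genes and 1 to 5 lateral plate factors. Counts higher and lower were 21 and 17 without late control replicate 1 of day 1, 21 and 26 without replicate 2, 18 and 17 and 27 and 27 without late BMP4 replicates 1 and 2 of day 1, 27 and 29 and 58 and 98 without early control replicates 1 and 2 of day 1, and 68 and 126 without early BMP4 replicate 1 of day 1. At day 2 they were 14 and 15 and 32 and 37 without late control replicates 1 and 2, 8 and 12 and 45 and 38 without late BMP4 replicates 1 and 2, 16 and 13 and 18 and 16 without early control replicates 1 and 2, and 20 and 29 without early BMP4 replicate 2.

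Groups share replicate numbers in the labels, but nothing states that a number marks a shared pool. Same-numbered control and BMP4 arrays deviated together with correlations of 0.26, 0.31, 0.19 and 0.07 (early day 1 and 2, late day 1 and 2), and over all 28 pairs of groups 22 were over 0.1. Pairing was to be taken from the data only where every pair was over 0.1, which 1 of the 4 was not, so the numbers were not used as pairs. A shared source of same-numbered arrays was not tested further. With the replicate block within population, 163 genes were higher and 182 lower, 154 were called in the late population, 48 at day 1, 254 at day 2, 1 for the change, and 13 cartilage matrix genes were lower. With the block within population and day, 111 were higher and 112 lower, with 116 in the late population, 37 at day 1 and 199 at day 2. The 112 calls were all kept by the former block and 109 by the latter.

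Signal over background limits dim genes such as Gpr22, whose size depends on the constant added (1.14 to 4.38).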

Other observations

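The genes below were chosen after their values were seen. All but Dkk1 passed the limma test of the early minus late difference over days 1 and 2. Ctss, a lysosomal protease, had 1.08 ± 0.24, Apoe, a lipid carrier protein, 1.06 ± 0.23, and Lcp1, an actin-bundling protein of blood cells, 1.04 ± 0.20. Their intermediate responses were 0.95, 0.76 and 0.32. They moved with the macrophage markers of the report, and the part of those cells was not tested. The potassium channel genes Kcnv2, Kcnab1 and Kcnq5 had 1.33 ± 0.27, 1.12 ± 0.24 and 1.00 ± 0.19, from early responses of 1.03, 1.08 and 1.39 and late responses of -0.30, -0.04 and 0.40. The other probe set of Kcnab1 gave 0.61, and the 2 others of Kcnq5 gave 0.06 and 0.52. Grpr, a peptide receptor, and Wfdc18, a secreted protein, had 0.84 ± 0.16 and 0.93 ± 0.19, and with Hoxc4 they are the 3 genes with a higher early response that passed in neither population by itself. Of 27 alternatives, these calls were lost in 20 for Kcnab1, 17 for Ctss, 17 for Apoe, 15 for Wfdc18, 14 for Grpr, 12 for Lcp1, 11 for Kcnv2 and 10 for Kcnq5.

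Among the genes with a lower early response, Chst15, a chondroitin sulfotransferase, had -1.21 ± 0.26, Sulf2, which removes sulfate from heparan sulfate, -0.60 ± 0.10, and Galnt3, which starts O-linked sugar chains, -1.16 ± 0.20. Their early responses were -1.22, -0.67 and -1.64, and their late responses -0.01, -0.07 and -0.48. The call was lost in 17 of 27 alternatives for Chst15, 3 for Sulf2 and 2 for Galnt3. The 2 other probe sets of Sulf2 gave -1.02 and 0.20. Dkk1, a secreted WNT antagonist, had called responses of 2.69 (early) and 2.36 (late), and its difference of 0.33 ± 0.32 did not pass (adjusted p = 0.704).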
